A study of Caenorhabditis elegans with 4 samples.

Results

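The regions described here are the SWD-3 peaks on the centre and the right arm of chromosome II of Caenorhabditis elegans. They were taken from the peak list deposited for the whole series by position alone: a peak belonged if its midpoint lay above base 3816000 of chromosome II, to the centre if it lay at or below 11448000 and to the right arm if it lay beyond. This gave 758 of the 9630 peaks in the list, 384 in the centre and 374 in the right arm. All coordinates are those of WormBase WS220. Chromosome II was taken to end at 15263560, the largest coordinate of any peak, so that the centre spanned 7.63 Mb and the right arm 3.82 Mb.

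The peaks come from chromatin immunoprecipitation with sequencing (ChIP-seq), which recovers and sequences DNA fragments bound to a protein. Both ChIP libraries, numbered 1 and 2, and both input DNA libraries were made from the same kind of material: wild-type N2 embryos of mixed stages, from a population of males and hermaphrodites grown at 20 degrees, fixed with formaldehyde. The antibody was an affinity-purified rabbit polyclonal against SWD-3. Whole embryos of several stages were pooled, so a peak says nothing of the cell type or stage in which it arose, and whether replicates 1 and 2 were separate embryo preparations is not stated.

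SWD-3 belongs to the WDR5 family of WD40-repeat proteins, scaffolds of the enzyme complexes that methylate lysine 4 of histone H3, a mark of active promoters. Worm autosomes have a centre that is rich in conserved, broadly expressed genes and in which recombination is rare, flanked by arms that recombine often and hold more repeats and more rapidly evolving genes. The question put to the lists was how peaks in the centre differ from peaks in the right arm, and whether each was also called in the ChIP replicates.

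Besides the series list, which names MACS v2 as its caller, each replicate has a peak list of its own, with 2698 peaks for replicate 1 and 4580 for replicate 2. The score of a peak is the authors' value on a scale that is not stated, so it is used here as a rank or percentile within its own list, 100 being the highest score. The lists hold no read counts, and the depth of the libraries is unknown. The lowest score was 50.03 in the replicate 1 list, 50.01 in the replicate 2 list and 1.30 in the series list. The lists may therefore have been cut at different levels, and a series peak absent from a replicate list may lie below its cut. This was not tested. Peaks of a list are not replicates and no p-value is given over them; the 95% intervals (Wilson for shares, Newcombe for differences of shares, binomial order statistics for medians) cover counting error only. Input values were not analysed here, so places that give peaks with any antibody were not separated. The reads behind the series list may be those of the replicates, and overlap with the replicate lists is then no independent support for a site.

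The right arm was nearly as rich in series peaks as the centre although it is shorter. It held 98.0 peaks per Mb and the centre 50.3, a ratio of 1.95 (log2 ratio 0.96, interval 0.76 to 1.17). The excess lay mainly in peaks that overlapped no replicate peak. Such peaks numbered 186 in the right arm and 46 in the centre (49.7% and 12.0%, against 54.7% of the whole list), which is 48.7 against 6.03 per Mb and a ratio of 8.09. Peaks that overlapped a peak of at least 1 replicate, by 1 bp or more, were spread almost evenly, at 49.3 per Mb in the right arm and 44.3 in the centre (log2 ratio 0.15, interval -0.10 to 0.41). Neither replicate list had an excess of that size. Replicate 2 had 46.9 peaks per Mb in the right arm and 51.4 in the centre (log2 ratio -0.13, interval -0.39 to 0.12), and replicate 1 had 32.8 and 25.9 (log2 ratio 0.34, interval 0.01 to 0.66).

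**Figure D1:**
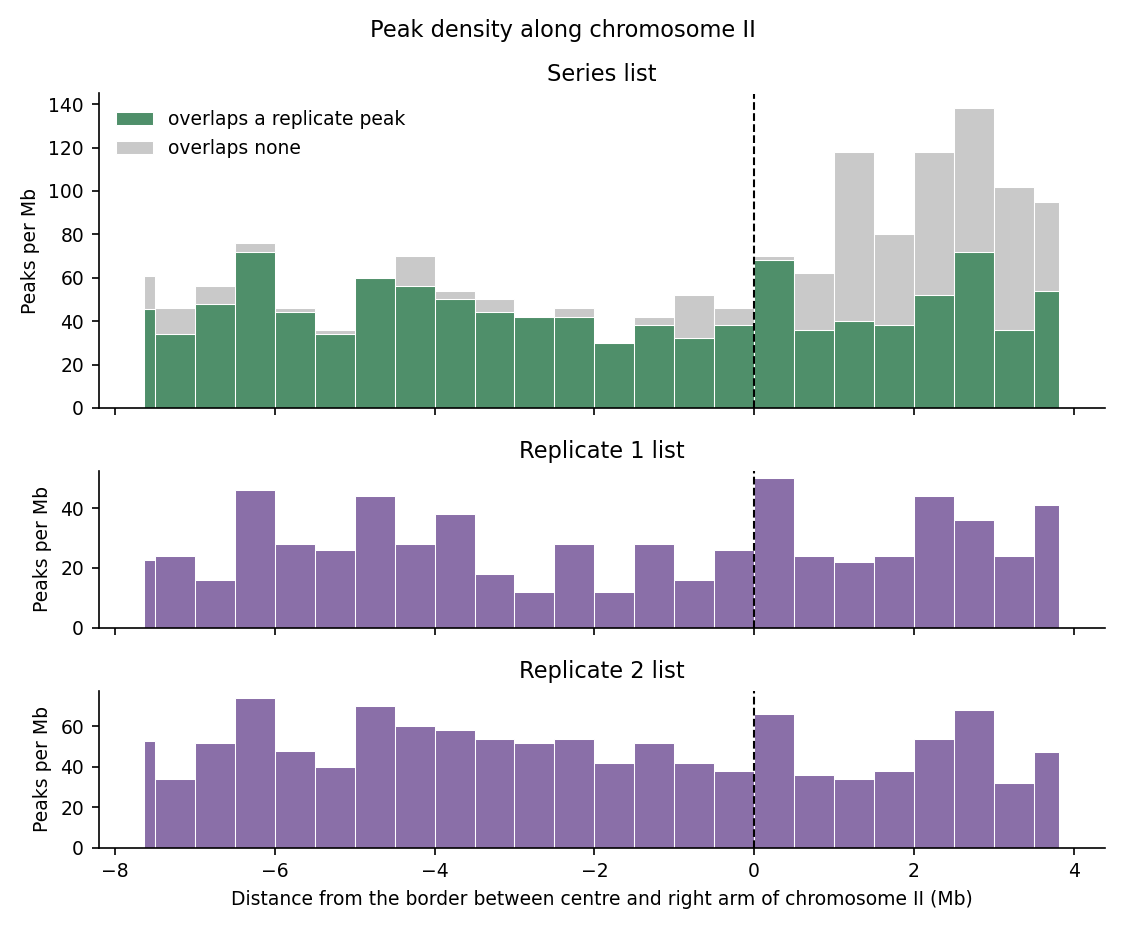
Peaks per Mb in bins of 0.5 Mb along the centre (left of the dashed line) and right arm of chromosome II, against distance from the border between them in Mb; green bars are series peaks that overlap a replicate peak, grey bars those that overlap none, and the lower panels show the replicate lists. The outermost bin on each side is shorter, and grey bars pile up from about 0.5 Mb beyond the border, where both replicate lists fall, from 25 to 12 peaks a bin in replicate 1 and from 33 to 18 in replicate 2.

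Most centre peaks were also called in a replicate, and about as many right arm peaks were as were not. In the centre 338 of 384 peaks overlapped a peak of either replicate (88.0%, interval 84.4 to 90.9), against 188 of 374 in the right arm (50.3%, interval 45.2 to 55.3); the share over the whole series list was 45.3%. The right arm thus lay near the whole list and the centre well above it, and the difference between them was 37.8 percentage points (interval 31.5 to 43.6). The difference came mainly from replicate 2, which had 325 of the centre peaks (84.6%) and 177 of the right arm peaks (47.3%), with 41.9% over the whole list. In replicate 1 the corresponding shares were 31.8% (122 peaks) and 22.7% (85 peaks), with 18.6% over the whole list, and the difference was 9.04 points (interval 2.70 to 15.3). The direction was therefore the same in both replicates, but without replicate 2 the difference was 9.04 points in place of 37.8.

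Peaks found in both replicates made up 28.4% of the centre (109 peaks) and 19.8% of the right arm (74 peaks), against 15.2% of the whole list. Per Mb they were somewhat denser in the right arm, at 19.4 against 14.3 (log2 ratio 0.44, interval 0.02 to 0.87). Counted instead as replicate 1 peaks that overlapped a replicate 2 peak, the log2 ratio was 0.22 (interval -0.18 to 0.63). For replicate 2 peaks that overlapped a replicate 1 peak it was 0.13 (interval -0.29 to 0.55), so both lay within counting error. Peaks found only in replicate 2 were the commonest class in the centre, where they were 216 or 56.2%, and made up 27.5% of the right arm and 26.7% of the whole list. Peaks found only in replicate 1 were rare in both, with 13 and 11 peaks (3.39% and 2.94%, against 3.40% of the whole list). Of those, 8 of 13 in the centre and 6 of 11 in the right arm were wider than 1000 bp, and none of them was among the highest-scoring 10% of the list.

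The change in sharing did not fall at the border itself. In the first 0.5 Mb of the right arm, from 11448001 to 11948000, 34 of 35 series peaks overlapped a replicate peak. In the next 0.5 Mb 18 of 31 did, and from 12448001 to 12948000 only 20 of 59. A division at 12 Mb, chosen after these values were seen, left 40 right arm peaks on the inner side, of which 39 were found in a replicate (97.5%, interval 87.1 to 99.6), and 334 on the outer side, of which 149 were (44.6%, interval 39.4 to 50.0). Over the whole series list 45.3% were found, so the outer side lay near the list and the inner side well above it. The inner stretch was also denser in replicate peaks, with 48.9 per Mb in replicate 1 and 68.8 in replicate 2, against 30.0 and 43.2 beyond 12 Mb. Of the full 1 Mb bins that lay wholly in the right arm, the densest was 14000001 to 15000000, with 119 series peaks of which 51 were found in a replicate, and the emptiest was 12000001 to 13000000, with 86 of which 34 were found.

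The full 1 Mb bins of the centre held from 35 series peaks (9000001 to 10000000, of which 34 were found in a replicate) to 57 (5000001 to 6000000, of which 54 were found). The lowest share found was in 10000001 to 11000000, where 12 of 45 peaks overlapped no replicate peak, and 10 of those 12 lay between 10448001 and 10948000. Next to the left border the share was also lower than in the middle of the centre, with 17 of 23 peaks found between 3948001 and 4448000. The left arm, on the other side of that border, held 779 series peaks at 204 per Mb. Replicate 2 had 26.7 peaks per Mb there, against 51.4 in the centre, while replicate 1 had 25.9 per Mb in both.

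The peaks nearest to the borders were not alike at both. Just below the left border lay peaks at 3810561 to 3810871 and 3815534 to 3815773, with score percentiles of 64.8 and 33.8, and each overlapped a replicate 2 peak. The first peaks above it, at 3883918 to 3884186 and 3885148 to 3885859, had percentiles of 13.7 and 13.5 and no replicate peak. At the right border, the last centre peaks, 11347778 to 11348421 and 11440162 to 11440535 (percentiles 74.9 and 60.0), and the first right arm peaks, 11452940 to 11453325 and 11453579 to 11453738 (percentiles 98.3 and 10.7), all overlapped a replicate 2 peak, the latter pair the same one.

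Right arm peaks were slightly wider and ranked lower by score than centre peaks in the series list. The median width was 320.5 bp (interval 305 to 337) in the right arm and 286.5 bp (275 to 302) in the centre, a difference of 34.0 bp (interval 12.1 to 54.1). Peaks wider than 1000 bp numbered 36 in the right arm (9.63%) and 20 in the centre (5.21%), against 13.9% of the whole list, so neither was rich in them. They held 41.4% of the covered length in the right arm and 26.2% in the centre. Series peaks covered 198 kb or 5.20% of the right arm and 153 kb or 2.01% of the centre. The median score percentile was 49.1 (interval 43.2 to 54.0) in the right arm, near the middle of the list, and 61.8 (57.9 to 67.7) in the centre, a difference of -12.7 (interval -21.0 to -6.41).

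The order of the scores was the opposite in the replicate lists. Replicate 2 peaks of the right arm had a median percentile of 61.9 (interval 53.6 to 68.5) in their own list, against 52.3 (46.9 to 56.7) for those of the centre, and replicate 1 peaks 56.2 (46.8 to 62.9) against 50.7 (42.7 to 56.5). The differences were 9.64 (interval 0.259 to 18.1) and 5.52 (interval -5.54 to 16.0), so that of replicate 1 lay within counting error. Replicate 2 peaks were also wider in the right arm, with a median of 583 bp against 540.5 bp, and 12.3% of them exceeded 1000 bp against 4.08% in the centre. In the series list the low ranks of the right arm belonged mostly to peaks without a replicate peak, 77 of 105 in the lowest 25%. The median percentile of right arm peaks without a replicate peak was 29.3 (interval 25.5 to 34.3). Such peaks ranked as low in the centre, at 30.7 (23.8 to 42.5). Right arm peaks found only in replicate 2 had a median of 70.1 (65.8 to 74.1), against 64.3 (58.1 to 70.3) in the centre, and those found in both replicates had 65.8 (60.8 to 73.4) against 74.3 (67.6 to 83.9).

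**Figure D2:**
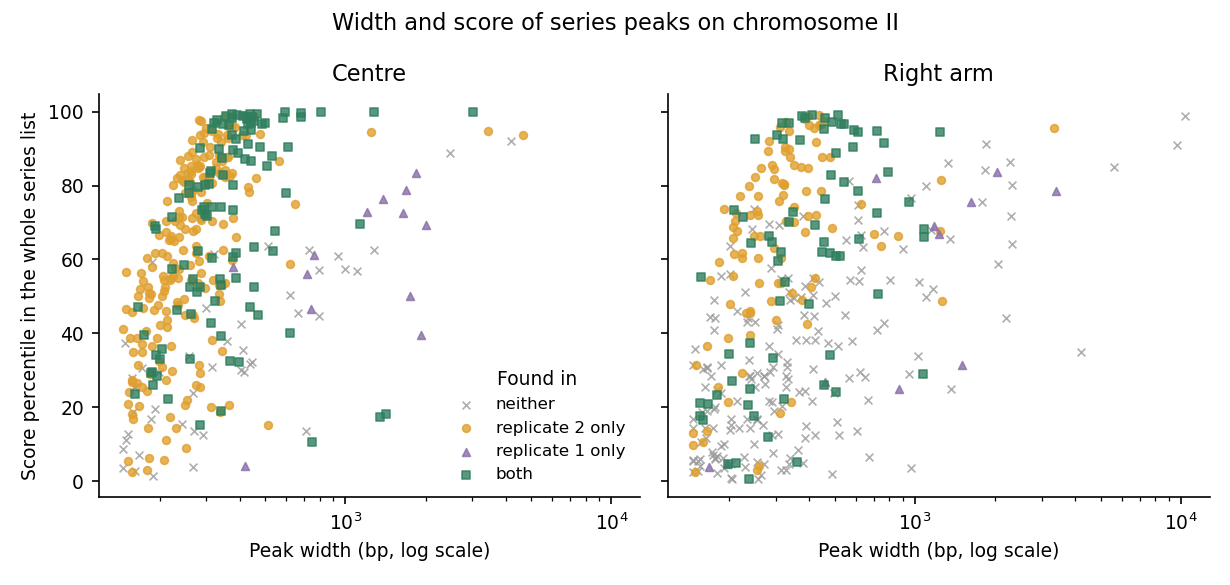
Width in bp (log axis) against score percentile in the whole series list for each of the 384 centre peaks and 374 right arm peaks; the marker shows whether the peak overlapped a peak in both replicates, in 1 of them or in neither. Peaks found in neither replicate (grey crosses) fill the lower part of the right arm panel, with a median percentile of 29.3, and are few in the centre.

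The gap in sharing between centre and right arm, counted over both replicates, was present in each 25% of the score range. In percentage points it narrowed towards the top, where nearly all centre peaks were found. In the lowest 25% of the whole list by score, 65.2% of centre peaks and 26.7% of right arm peaks overlapped a replicate peak, and in the next 25% the shares were 78.3% and 29.9%. In the third 25% they were 91.3% and 62.9%, and in the highest 25% of scores 98.6% (138 of 140) and 85.9% (73 of 85), a difference of 12.7 points (interval 5.80 to 21.7). Put as peaks not found, the shares were 34.8% in the centre and 73.3% in the right arm for the lowest 25%. For the highest 25% they were 1.43% and 14.1%. Among the highest-scoring 10% they were 1.52% and 7.69%. The interval of that last difference, centre minus right arm, was -18.9 to 2.11 points and includes 0. Of the highest-scoring 10%, all peaks of up to 1000 bp were found, 60 of 60 in the centre and 34 of 34 in the right arm. With replicate 1 alone the differences were 0.248, 13.9, 5.69 and 3.07 points from the lowest to the highest 25%, and the interval lay above 0 only for the second (1.91 to 25.6). Taken over both replicates, the gap was also present in each width class: 95.5% of centre peaks and 55.3% of right arm peaks wider than 200 and up to 400 bp were found, and 16 of 20 and 14 of 36 (38.9%) of those over 1000 bp. For peaks of up to 200 bp the shares were 77.3% and 35.4%. In replicate 1 alone no such gap was seen for these narrowest peaks, with 11 of 75 in the centre and 10 of 65 in the right arm. Shares of the whole list within each score or width class were not computed. The values therefore set centre against right arm and do not show which of them departs from the list.

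**Figure D3:**
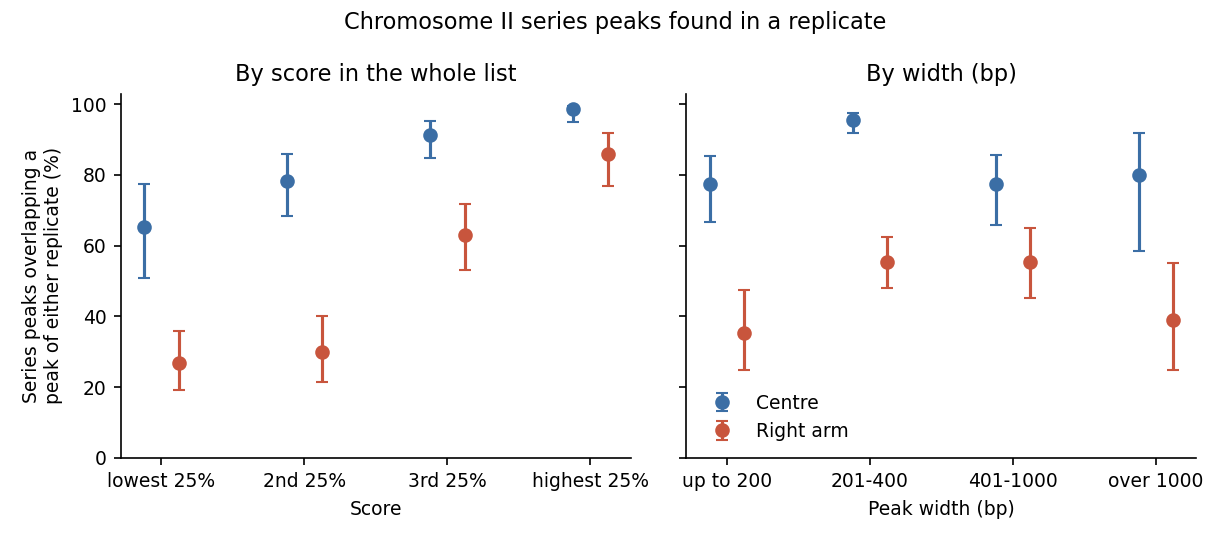
Percent of series peaks that overlap a peak of either replicate, for the centre and the right arm, by score in steps of 25% of the whole list (left) and by width in bp (right); bars are 95% Wilson intervals. The centre lies above the right arm in each class. The distance in percentage points is smallest in the highest 25% of scores, at 98.6% against 85.9%, where nearly all centre peaks were found.

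Strong peaks, defined as the highest-scoring 10% of the whole list (10.0% of its peaks, scores from 32.02), numbered 66 in the centre and 39 in the right arm. They were 17.2% of centre peaks and 10.4% of right arm peaks, the latter close to the whole list. Per Mb strong peaks of centre and right arm differed by less than the counting error, at 8.65 and 10.2 (log2 ratio 0.24, interval -0.33 to 0.81). Strong peaks were found in a replicate in both places: 65 of 66 in the centre and 36 of 39 in the right arm overlapped a replicate 2 peak, and 36 of 66 and 21 of 39 a replicate 1 peak. All 60 strong centre peaks and all 34 strong right arm peaks of up to 1000 bp were among those in replicate 2 (intervals 94.0 to 100 and 89.8 to 100). Over whole-list peaks of all scores, 41.9% overlapped a replicate 2 peak and 18.6% a replicate 1 peak. The shares for the strong peaks of the whole list were not computed, so whether these counts are particular to chromosome II cannot be said. The 4 strong peaks without a replicate peak were all wider than 1000 bp, 1 in the centre and 3 in the right arm.

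The highest scores of the centre exceeded those of the right arm in the series list. The centre held series ranks 6, 8, 9 and 10 in 2 close pairs, followed by the peak at 4701267 to 4701946 (score 113.38, rank 33), which overlapped the second-ranked peak of all 4580 in replicate 2. The first right arm peak, at 11960572 to 11960980 (score 85.70), ranked only 89. Next came 14357827 to 14358261 (rank 94), 15025644 to 15026157 (rank 100) and 13976054 to 13976448 (rank 102). Of the 10 highest-scoring peaks, all 10 in the centre overlapped a replicate 2 peak and 9 a replicate 1 peak, the exception being 10387978 to 10388387. In the right arm 9 of the 10 overlapped a replicate 2 peak and 5 a replicate 1 peak. Their best replicate 2 ranks ran from 2 to 267 in the centre and from 108 to 568 in the right arm.

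The right arm peak without any replicate peak among those 10 was also the widest of the 758. It ran from 14322231 to 14332621, was 10391 bp wide and had a score of 78.75 (rank 119). The next widest in the right arm behaved likewise: 13249903 to 13259554 (9652 bp, rank 867), 13772914 to 13778523 (5610 bp, rank 1450) and 14661557 to 14665764 (4208 bp, rank 6271) had no peak in either replicate. The fifth, 14687617 to 14691021 (3405 bp), overlapped a replicate 1 peak of rank 2103 of 2698. The widest centre peaks were shorter. The first, at 6504794 to 6509431 (4638 bp), overlapped a replicate 2 peak of rank 2661 of 4580, the second, at 5073270 to 5077473 (4204 bp), overlapped none, and the third, at 3943160 to 3946609 (3450 bp), overlapped 2 replicate 2 peaks whose better rank was 4365. The fourth, 5347670 to 5350678 (3009 bp), belongs to one of the top-ranked pairs and was found in both replicates. The fifth, 10706834 to 10709313 (2480 bp, rank 1091), overlapped no peak of either replicate.

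Neighbouring series peaks were closer together in the right arm. The median gap between the end of a peak and the start of the next was 2207 bp (interval 1499 to 3076) in the right arm and 11214 bp (9171 to 13107) in the centre. Gaps under 2000 bp made up 180 of 373 in the right arm (48.3%) and 76 of 383 in the centre (19.8%). The right arm of II was not unusual in this. With the other nuclear chromosomes divided at 25% and 75% of their length, their right arms had 31.3% (X) to 76.5% (V). The left arm of II had 73.9%. The centre of II lay below the other centres, which had 24.7% (III) to 33.0% (I). In the replicate lists the spacing differed less. The median gaps were 10110 bp (interval 8163 to 14035) and 12050 bp (9796 to 14614) in replicate 2, and 15192 bp (6765 to 21474) and 19110 bp (12989 to 25808) in replicate 1, for right arm and centre, and these intervals overlap. Gaps under 2000 bp made up 29.8% of right arm and 16.2% of centre gaps in replicate 1, a difference of 13.6 points (interval 4.24 to 23.3). In replicate 2 they made up 21.3% and 14.8%, and the interval of the difference, -0.111 to 13.8 points, includes 0.

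**Figure D4:**
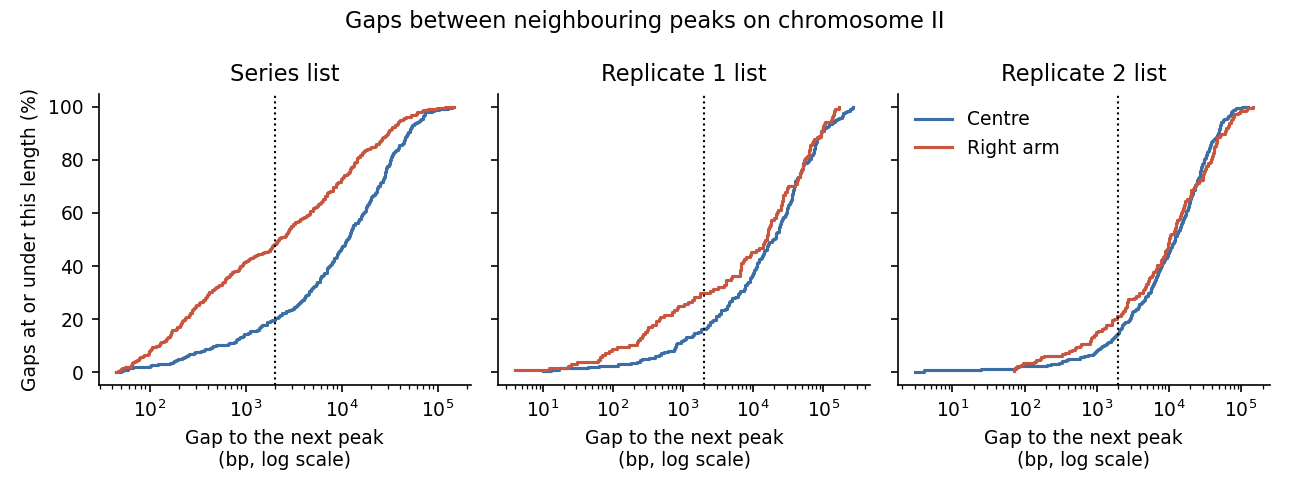
Cumulative percent of gaps between neighbouring peaks at or under a given length in bp (log axis), in the series list and in each replicate list, for the centre and the right arm of chromosome II; the dotted line marks 2000 bp. The curves of the series list stand far apart, with 48.3% of right arm gaps and 19.8% of centre gaps under 2000 bp, while those of replicate 2 nearly coincide above that length.

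The short gaps of the right arm joined peaks into runs. With neighbours under 2000 bp apart counted as 1 run, 254 right arm peaks (67.9%) lay in 74 runs and 127 centre peaks (33.1%) in 51. Runs of 5 or more peaks numbered 13 in the right arm, with 97 peaks, and 3 in the centre, with 17. No count of runs on other chromosomes is given here. Over the whole series list 54.7% of peaks overlapped no replicate peak, and the share for peaks in runs was not computed. Several of the long runs of the right arm overlapped no replicate peak at all. The longest, 15 peaks from 14661557 to 14675572, overlapped no replicate peak, nor did the run of 9 from 13508314 to 13516076 or the run of 8 from 13244776 to 13260251. Of the 11 peaks from 12741746 to 12753688, 1 overlapped a replicate 1 peak.

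Strong peaks, in contrast, rarely lay close to each other. The centre had 4 close groups, each a pair under 2000 bp apart, and the right arm had 1. Per Mb that was 0.524 and 0.262. The pairs with the highest summed scores were 10033357 to 10035102 and 5346335 to 5350678, whose 4 peaks were found in both replicates. The other centre pairs, 3941751 to 3946609 and 9716548 to 9718945, and the right arm pair, 14141971 to 14146628, were found in replicate 2 and not in replicate 1. In all, 8 of 66 strong centre peaks (12.1%, interval 6.27 to 22.1) and 2 of 39 strong right arm peaks (5.13%, interval 1.42 to 16.9) stood in a close group. The median gap from one strong peak to the next was 73.1 kb in the centre and 82.6 kb in the right arm.

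Of the long runs in the right arm, 2 were found in the replicates throughout. In the run from 13817697 to 13827685 all 8 series peaks overlapped peaks of both replicates. Each replicate had 6 peaks there, evenly set: their midpoints followed each other at steps of 1603 to 1872.5 bp in replicate 1 (median 1820.5) and 1560 to 2025.5 bp in replicate 2 (median 1724.5), and their widths were 1243 to 1483 and 1385 to 1774 bp. In replicate 1 they were among the strongest peaks of the genome, with ranks from 13 to 31 of 2698, and the peaks at 13820985 to 13822257, 13817565 to 13818807 and 13826417 to 13827786 were the first 3 of the right arm. In replicate 2 the 6 peaks ranked from 309 to 1122 of 4580. The 8 series peaks had scores of 2.33 to 15.43, and the highest of them, at 13817697 to 13818414, ranked only 2638 of 9630. The other such run, 6 series peaks from 11632709 to 11637159, was found in full in replicate 2, where it met 3 peaks, and in part in replicate 1, which had 4 of the 6. One of these replicate 2 peaks, at 11633718 to 11636217, ranked 16.

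The first-ranked peak of the whole replicate 2 list also lay in the right arm. It ran from 11757014 to 11761799 (4786 bp, score 3230.05), and replicate 1 had a peak of nearly the same extent, from 11757066 to 11761713 (4648 bp, rank 25). In the series list this place was divided into 4 peaks that covered 1875 bp together. Of these, 11758719 to 11759966 scored 43.35 (rank 526) and the other 3 between 2.42 and 4.42. The first replicate 1 peak of the centre was similar: 8288351 to 8292789 (4439 bp, rank 79) matched a replicate 2 peak at 8288286 to 8292855 (rank 82), and the 4 series peaks inside it had scores of only 3.11 to 4.35. A replicate 2 peak of rank 46 at 12843639 to 12846189 met 3 series peaks and no replicate 1 peak. Such division was uncommon: 16 of 179 replicate 2 peaks in the right arm and 10 of 392 in the centre overlapped more than 1 series peak, and 6 of 125 and 3 of 198 replicate 1 peaks did.

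Seen from the replicate lists, right arm peaks were recovered at least as often in the series list as centre peaks. Replicate 2 peaks had a series peak in 87.7% of cases in the right arm (157 of 179) and 79.8% in the centre (313 of 392), against 83.0% over the whole list, a difference of centre minus right arm of -7.86 points (interval -13.7 to -1.15). For replicate 1 the shares were 64.8% and 60.6%, against 65.2% over the whole list. The interval of that difference, -14.7 to 6.69 points, includes 0. Series peaks covered 5.20% of the right arm and 2.01% of the centre, so an overlap of 1 bp is easier to meet in the right arm. Its part in these shares was not tested. Replicate 1 peaks were found in replicate 2 in 61.6% of cases in the right arm (77 of 125) and 66.7% in the centre (132 of 198), against 62.5% over the whole list, and replicate 2 peaks in replicate 1 in 39.1% and 32.7%, against 34.9%. The intervals of these last differences, -5.50 to 15.8 and -15.0 to 1.90 points, include 0. Across overlapping pairs of replicate peaks the scores had a Spearman's rho of 0.61 in the centre (133 pairs) and 0.50 in the right arm (77 pairs). Between series and replicate 2 peaks rho was 0.64 (327 pairs) and 0.52 (177 pairs), and between series and replicate 1 peaks 0.26 (125 pairs) and 0.11 (89 pairs). These correlations across peaks are descriptions: the lists may share reads, and wide peaks enter several pairs.

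The other nuclear chromosomes were divided at 25% and 75% of their length and set beside chromosome II. The centre of II had the lowest share of series peaks without a replicate peak, 12.0% against 15.4% (III) to 28.7% (V). The right arm of II, at 49.7%, lay between X (26.8%) and V (85.0%). The density ratio of right arm to centre in the series list was in the middle of the range, a log2 ratio of 0.96 against 0.04 (III) to 2.05 (V). For peaks found in both replicates it was above all 5 others, 0.44 against at most 0.09 (X). It was also above them in replicate 1, 0.34 against -0.57 (V) to 0.07 (X), whereas in replicate 2 it was -0.13, within the range of -0.87 (V) to 0.12 (X). These are single values per chromosome and no test of the difference was made.

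**Figure D5:**
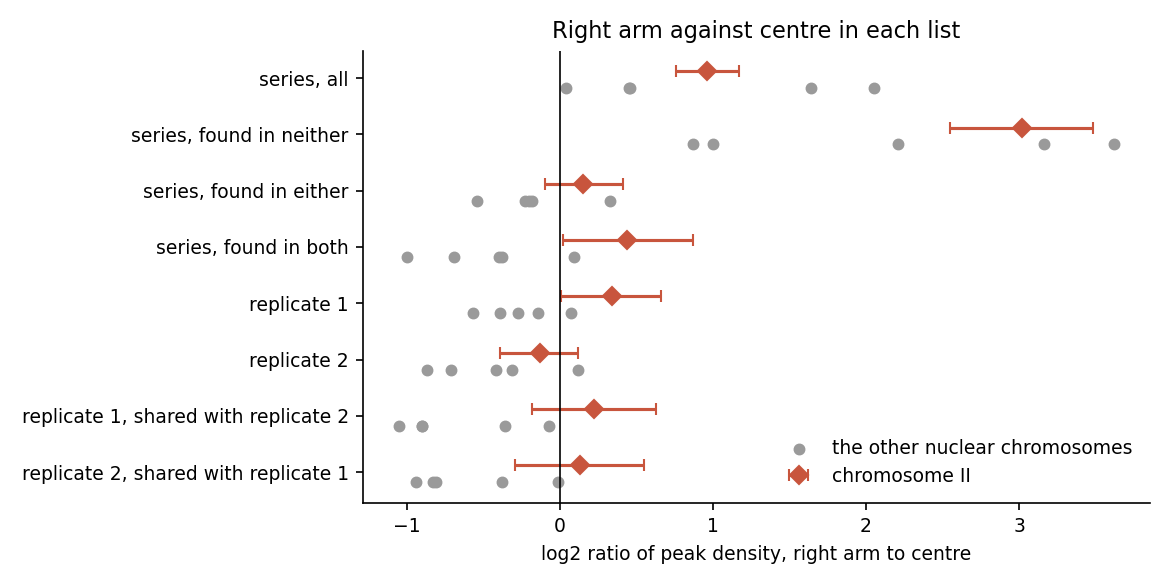
The log2 ratio of peaks per Mb in the right arm to those in the centre, for subsets of the series list and for the replicate lists; red diamonds are chromosome II with 95% intervals of counting error, grey dots are the other nuclear chromosomes. Values right of 0 mean a denser right arm: chromosome II stands at 3.02 for series peaks found in neither replicate and at 0.15 for those found in either.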

How the data were processed

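The data are 3 deposited peak lists: 1 for each of 2 ChIP replicates, whose source column names MACS without a version, and 1 for the whole series, whose source column names MACS v2. Per the file headers the coordinates are WormBase WS220; the submitters' processing notes name BWA and ce10. Thresholds, control and any pooling were not given in the sources used here. For every peak the authors give a start, an end and, in the deposited files, a score of unstated scale, used here only as a rank within its list. The 2 input libraries were not analysed here.

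Peaks were placed by midpoint and called shared at an overlap of 1 bp or more. Close means a gap under 2000 bp. Percentiles and ranks were taken over each whole list. Values were computed in Python 3.11.15 (scipy 1.17.1, pandas 2.3.3, numpy 2.4.6) and drawn with matplotlib 3.10.9; the procedures were tested on simulated data. A wider peak has a greater chance of such an overlap, and read depth, which sets how many peaks are called, is unknown.

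The members, definitions and alternatives were chosen with earlier results of these data known. By rule, the peaks named are the 10 highest-scoring and 5 widest of each region, the close groups, the densest and emptiest bins, the longest gaps, the 3 highest replicate peaks of each region and the peaks beside each border. The runs of 5 or more peaks, the division at 12 Mb and the lower-ranked peaks described inside a named place were chosen after their values were seen. Gene names, annotation and sequence were not used here, since the gene table at hand is of another assembly (WBcel235).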

Additional observations from a re-analysis of the deposited data

How the results depend on the processing

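No paired analysis was possible because the values come from no test: the lists used are those of 1 group, the ChIP replicates, and the input libraries that share their numbers were not analysed here. The difference in the share of peaks found in a replicate, 37.8 points, was 23.3 at a 50% reciprocal overlap and 21.7 in the higher-scoring 50% of the list; leaving out a replicate gave 9.04 to 37.3. The log2 density ratio of 0.96 was 0.51 in the higher-scoring 50%, 0.33 after joining peaks under 2000 bp apart, and 0.34 and -0.13 in the replicate 1 and 2 lists, the latter of the opposite sign. Among alternatives added after seeing the data it was 0.15 for peaks found in at least 1 replicate, 0.44 for those in both and 1.37 in covered bp. The difference in median width of 34.0 bp was 88.0 in the higher-scoring 50%. The difference in median score percentile, -12.7, turned to 5.52 and 9.64 in the replicate 1 and 2 lists. Close groups of strong peaks numbered 4 in the centre and 1 in the right arm. They were 2 and 1 for the highest 5% by score and 7 and 9 for the highest 25%. With gaps under 1000 bp they were 3 and 0, and with gaps under 5000 bp 8 and 1. The order of the counts turned with the 25% threshold, but the counts are small and the centre is the longer region. Where a value moved the cause was not tested. The other alternatives, borders at 70% and 80% of the chromosome and the right arm beyond 12 Mb among them, stayed within the intervals of counting error or, for group counts, within 1.5 times. The unknown depth and the unknown cut-offs of the lists limit what an absent peak means.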

Other observations

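The longest stretch without a series peak was of nearly the same length in both places, 143 kb in the centre (9787540 to 9931001) and 147 kb in the right arm (14822684 to 14969301). The replicates differed there: the centre stretch held 3 replicate 2 peaks and 0 replicate 1 peaks, and the right arm stretch held 2 replicate 1 peaks and 0 replicate 2 peaks.

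The median distance between midpoints of overlapping peaks was smaller in the centre, but the intervals overlapped. Replicate 2 peaks were also wider in the right arm, which allows larger distances. Between the replicates the median distance was 39.0 bp (interval 25.5 to 49.5, 133 pairs) in the centre and 61.0 bp (46.0 to 86.0, 77 pairs) in the right arm. Series peaks were narrower than the replicate 2 peaks they overlapped, with a median width ratio of 0.525 in the centre and 0.547 in the right arm, and nearer in width to those of replicate 1, at 0.911 and 0.840.

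Series peaks that overlapped no replicate peak lay at a median distance of 5.47 kb from the nearest one in the centre and 6.13 kb in the right arm. Of these peaks, 5 of 46 in the centre and 25 of 186 in the right arm lay under 1 kb from a replicate peak. In the higher-scoring 50% of the series list, those of up to 400 bp were found in a replicate in 98.9% of cases in the centre (186 of 188) and 84.4% in the right arm (76 of 90). For wider ones the shares were 85.1% (57 of 67) and 63.0% (58 of 92). The shares of the whole list in these classes were not computed.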
